A study of Oryza sativa with 2 samples.

Results

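This section describes 10 rice genes of iron homeostasis and iron storage, chosen by their locus IDs as known members of the pathway. No rule on their values was used, but earlier results of these data were known when they were chosen. The genes were *IRO2*, *IRO3*, *HRZ1* and *HRZ2* (regulators), *NAS1*, *NAS2* and *NAS3* (nicotianamine synthesis), *YSL2* (transport), and *Fer1* and *Fer2* (ferritin). Each ID matched 1 entry of the deposited table, so the set is 10 of 42152 entries. The table gives IDs alone, and the names are the usual rice names of these IDs. The leaves came from 4-week-old plants of *indica* cv. Zhongjiazao 17 (the wild-type) and of *yl-1*, a chlorotic line taken from EMS-mutagenized plants of that cultivar, with 1 library each. *yl-1* carries a base change in the coding region of *YL-1*, which encodes a subunit of the cyclase that closes the isocyclic ring of chlorophyll. Nothing in the labels limits *yl-1* to that change, so other EMS mutations of this line cannot be told apart from it. According to the labels, both genotypes were kept at 26 °C with 12 h of light at 300 μmol m−2 s−1 and 12 h of darkness, and poly(A) RNA was sequenced.

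Grasses take up iron from the soil as a complex with phytosiderophores, which are made from nicotianamine, and nicotianamine also carries iron between tissues. In rice a cascade of bHLH transcription factors turns these genes on when iron is short, and the HRZ ubiquitin ligases hold the cascade back. In leaves much of the iron sits in chloroplasts, in the photosystems, in heme and in ferritin, and the cyclase to which YL-1 belongs has an iron centre itself. Iron shortage makes young leaves chlorotic.

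Levels are given as FPKM, fragment numbers scaled to transcript length and to all mapped fragments, so levels of different genes can be set side by side. A difference is log2((FPKM + 1) ratio), the *yl-1*-labelled library over the wild-type-labelled library. Genes with a mean of at least 1 FPKM over both libraries (14559 entries) were compared. Each genotype has 1 library and no replicate, so no test, SD or p-value is given and no difference is shown to exceed the spread between plants. The fragments per library are unknown, so counting error is not given either. Leaf RNA of this kind does not tell fewer cells of a type apart from less RNA per cell.

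The genotype names are those of the deposited columns. They are in doubt, because a printed table of 24 selected genes holds these columns under exchanged names. Within rounding, 23 of its wild-type values equal the column named for *yl-1*, 18 of its *yl-1* values equal the column named for the wild-type, while 0 values match under the same genotype name. The 10 iron genes are not in it. Each direction given here is therefore one of column names only, and it turns around if the printed names are right. *YL-1* itself, whose mutation is a base change, stood at 671 FPKM in the wild-type-labelled library and 1124 FPKM in the *yl-1*-labelled library. The libraries were leaf-like in the photosystem genes used as leaf markers, which are all in the printed table. *PsbP* and *PsbR* are also in that table, at far lower printed levels, and are not among the markers. The markers *PsbO*, *PsaL*, *PSI-N* and *Psb28* lay between 387 and 3824 FPKM in the wild-type-labelled library. In the other library these markers lay between 485 and 5206 FPKM. Of 3 IDs listed as root genes from general rice nomenclature, 2 were at 0 in both libraries, as were 48.5% of all entries. The third stood at 8.61 and 13.5 FPKM, so the root IDs add little to that description.

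Ferritin transcripts were the most abundant of the iron set in both libraries, and they were lower in the *yl-1*-labelled library. *Fer2* (LOC_Os12g01530), which encodes the protein shell that stores iron inside the plastid, stood at 99.9 FPKM in the wild-type-labelled library and at 77.8 FPKM in the *yl-1*-labelled library. Its level was above that of 95.5% and 94.2% of the entries above 0 in the respective libraries. *Fer1* (LOC_Os11g01530), the second ferritin gene, stood at 17.8 and 14.5 FPKM. Both copies were thus lower in the *yl-1*-labelled library, with log2 ratios of -0.36 for *Fer2* and -0.28 for *Fer1*. The copies lie on the duplicated ends of chromosomes 11 and 12 and are close in sequence, and how the counting divided shared fragments between them is not stated. Their sum depends on that division only through any difference in length between the copies, provided no shared fragment was dropped or counted at both. Neither point is known here. The sum was 118 FPKM in the wild-type-labelled library and 92.3 FPKM in the other, a log2 ratio of -0.35. *Fer2* exceeded *Fer1* 5.62-fold in the wild-type-labelled library and 5.37-fold in the *yl-1*-labelled library. These ratios may carry the division of shared fragments more than the sum does.

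These differences can be set beside those of all genes of like level. Over the 5100 genes with a mean of 10 to 100 FPKM, the middle 90% of log2 ratios ran from -0.80 to 0.63, with a median of -0.0020. Both ferritin genes lay inside that range. The 4 photosystem genes and *YL-1* stood on the other side of 0, with a median log2 ratio of 0.33. All 5 had been picked by the study as differing between these libraries, so their common sign is no independent evidence of a direction. In the same printed table *PsbP* differed in the direction of these photosystem genes and *PsbR* in the opposite one. Over all 945 genes with a mean of at least 100 FPKM the median was 0.11. Whether the lean of abundant leaf transcripts has a part in the ferritin values was not tested.

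**Figure D1:**
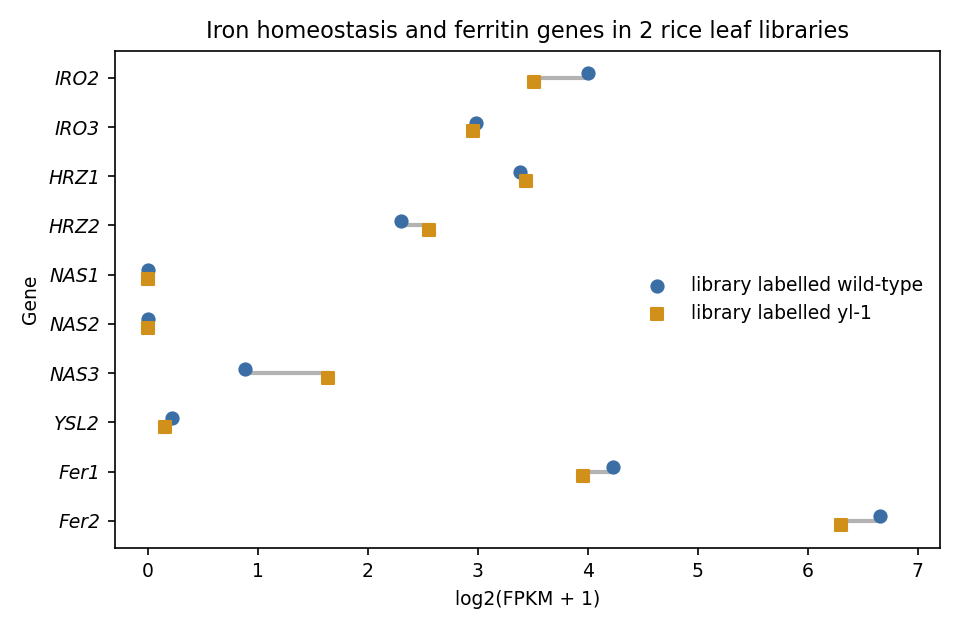
Level of each of the 10 iron genes, as log2(FPKM + 1) on the horizontal axis, in the wild-type-labelled library (circles) and the *yl-1*-labelled library (squares), 1 library each and no error bars. *Fer2* is the highest gene in both, *NAS1* and *NAS2* lie at 0 in both, and the pairs farthest apart on this scale are *NAS3* and *IRO2*.

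The regulators were expressed at moderate levels, with the activator *IRO2* lower in the *yl-1*-labelled library, *IRO3* and *HRZ1* close to level and *HRZ2* higher. *IRO2* (LOC_Os01g72370) encodes a bHLH factor that switches on genes of phytosiderophore synthesis and iron uptake in iron-deficient rice. It stood at 15.0 FPKM in the wild-type-labelled library and at 10.4 FPKM in the *yl-1*-labelled library, a log2 ratio of -0.49. This was the lowest log2 ratio of the iron genes compared, and it lay inside the middle 90% of genes of like level. *IRO3* (LOC_Os03g26210), a bHLH factor that restrains the same response, was nearly level at 6.94 and 6.79 FPKM, a log2 ratio of -0.027.

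*HRZ1* and *HRZ2* encode ubiquitin ligases with hemerythrin domains that bind metal, and plants with less of them take up more iron. *HRZ1* (LOC_Os01g49470) stood at 9.46 FPKM in the wild-type-labelled library and 9.87 FPKM in the *yl-1*-labelled library. *HRZ2* (LOC_Os05g47780) stood at 3.95 and 4.90 FPKM. Their log2 ratios were 0.056 and 0.25, against a middle 90% of -0.88 to 0.78 over the 8514 genes with a mean of 1 to 10 FPKM. The sign for *HRZ1* depends on the scale. After rescaling to the same sum of FPKM, *HRZ1* was at -0.086, while *HRZ2* was at 0.12, *IRO3* at -0.16 and *IRO2* at -0.63. That rescaling takes the median of all compared genes from 0.014 to -0.12. In order of level, *IRO2* was above *HRZ1*, *IRO3* and *HRZ2* in both libraries, but its lead over *HRZ1* narrowed to 10.4 against 9.87 FPKM in the *yl-1*-labelled library.

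Genes of nicotianamine synthesis were at low levels or at 0 in these libraries. *NAS1* (LOC_Os03g19427) and *NAS2* (LOC_Os03g19420), neighbouring and closely similar genes, were listed at 0 in both libraries. An entry at 0 can be a failed estimate as well as an absent transcript, and 20458 of the 42152 entries (48.5%) were at 0 in both libraries. *NAS3* (LOC_Os07g48980) stood at 0.848 FPKM in the wild-type-labelled library and 2.11 FPKM in the *yl-1*-labelled library. It was the only nicotianamine synthase gene of the set above 0, and it was higher in the *yl-1*-labelled library, with a log2 ratio of 0.75. Without a pseudocount the ratio was 2.48, past 2-fold, because adding 1 to values this low draws them together. *NAS3* entered the comparison through its level in the *yl-1*-labelled library, since in the other library it was under 1 FPKM. Its log2 ratio lay just inside the middle 90% of genes with a mean of 1 to 10 FPKM, whose upper end was 0.78.

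*YSL2* (LOC_Os02g43370) encodes a carrier of iron and manganese bound to nicotianamine, known from the phloem and the developing grain of rice. It was near the floor of the table at 0.169 FPKM in the wild-type-labelled library and 0.113 FPKM in the *yl-1*-labelled library. Only 11.6% and 6.55% of the entries above 0 were lower in the respective libraries. *YSL2* did not reach the mean of 1 FPKM and was left out of the counts. The values of *YSL2* are too low, with fragments unknown, for a direction to be read from them.

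**Figure D2:**
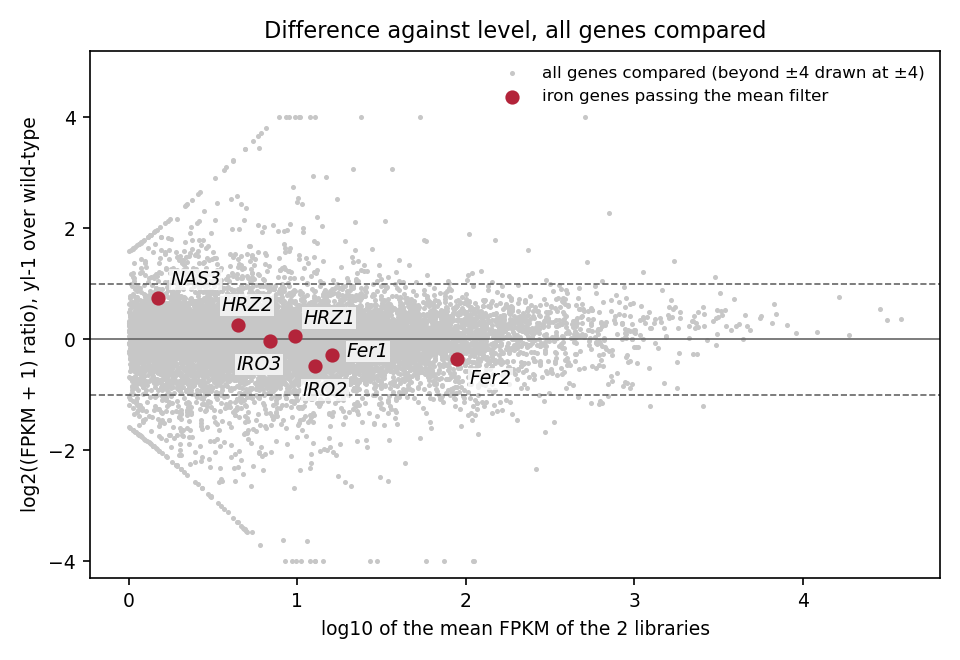
Log2((FPKM + 1) ratio) of the *yl-1*-labelled library over the wild-type-labelled library (vertical axis) against log10 of the mean FPKM (horizontal axis) for the 14559 entries compared (grey) and the 7 iron genes among them (red). Dashed lines mark a 2-fold difference, and the 7 iron genes all lie between them, from -0.49 for *IRO2* to 0.75 for *NAS3*.

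Taken as a set, 7 of the 10 genes reached the mean of 1 FPKM. Of these, 3 were higher in the *yl-1*-labelled library (*HRZ2*, *NAS3* and, on the deposited scale but not after rescaling to the same sum, *HRZ1*) and 4 were lower (*IRO2*, *IRO3*, *Fer1* and *Fer2*). Their median log2 ratio was -0.027, beside 0.014 over all genes compared, of which 51.7% were higher and 48.3% lower. No gene of the set was past 2-fold on the log2(FPKM + 1) scale, where 6.15% of all genes compared were, 2.5% higher and 3.65% lower. A count of 0 in 7 is near that background and does not set the iron genes apart. The gene closest to the threshold was *NAS3*. It passed the mean filter only through the library where it was higher, so its place among the 3 higher genes carries no weight. It was past 2-fold with a pseudocount of 0.1, where 4.03% of all genes compared were that much higher, and with 0.01, where 4.2% were. At 1.5-fold it was again the 1 iron gene past the threshold. That much higher were 7.71% of all genes compared (1122 of 14559). That much lower were 1393 of these genes and 0 iron genes. A count of 1 in 7 over both directions therefore does not set the iron genes apart.

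Other iron genes were taken from 4 lists with 26 further IDs, assigned from general rice nomenclature, as the sources used here give these IDs no names. They gave 27 entries, since 1 ID has 2 entries, of which 16 were compared. Of these, 13 were higher in the *yl-1*-labelled library and 3 were lower, with a median log2 ratio of 0.17. Over all genes compared, 51.7% were higher and 48.3% lower, with a median of 0.014. None of the 16 was past 2-fold, where 6.15% of all genes compared were, so that count is near the background. The counts hang on the scale, with 8 higher and 8 lower and a median of 0.017 after rescaling to the same sum. That rescaling also takes the median of all genes compared from 0.014 to -0.12. The median of the lists thus stays above that of all genes on both scales.

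Within these lists, 5 of the 7 entries for iron uptake and phytosiderophores were under the mean of 1 FPKM, as were 65.5% of all entries, so low levels are not particular to them. Of these 5, 2 were at 0 in both libraries and 3 were above 0, at no more than 0.300 FPKM. The other 2 were both higher in the *yl-1*-labelled library, with log2 ratios of 0.12 and 0.21. Of all genes compared 51.7% were higher, and counts in lists this small are not told apart from that share. Transport within the plant had 5 of 8 entries compared, with 4 higher, 1 lower and a median of 0.22. Genes of the vacuole, mitochondrion and plastid had 4 of 6 entries compared, with 3 higher, 1 lower and a median of 0.23. The lower entry, LOC_Os04g48930, had the lowest log2 ratio of all 16, with 7.76 FPKM in the wild-type-labelled library and 3.71 FPKM in the *yl-1*-labelled library (-0.90). With a pseudocount of 0.1 or 0.01, or after rescaling to the same sum, 1 gene of this list was past 2-fold and lower, against 5.37%, 5.62% and 4.68% of all genes compared at those settings. After rescaling to the same sum the medians of these lists were 0.020 for uptake (1 higher, 1 lower), 0.070 for transport and 0.087 for the vacuole, mitochondrion and plastid. The median of all genes compared was then -0.12.

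Further regulators of the iron response included the most abundant gene of the wider lists. Of 6 entries, 5 were compared, and their levels ran from 20.1 to 316 FPKM in the wild-type-labelled library. That gene, LOC_Os05g38140, stood at 316 and 372 FPKM (0.23). In all, 4 of the 5 were higher and 1 lower, beside 51.7% higher over all genes compared. Their median was 0.051, which turned to -0.10 after rescaling to the same sum, where that of all genes compared was -0.12. The 5 control genes were chosen as common references for leaf RNA, with IDs again from general rice nomenclature. They stood between 1.7 and 71.2 FPKM in the wild-type-labelled library, so the lowest was little above the filter. Their log2 ratios ran from -0.069 to 0.10, with a median of 0.020, which turned to -0.13 under the same rescaling. On the deposited scale *Fer1*, *Fer2* and *IRO2* lay below the control median and *HRZ2* and *NAS3* above it, while *IRO3* and *HRZ1* lay within the control range. Rescaling shifts these genes and the control genes nearly alike, so it is no second check of that order.

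**Figure D3:**
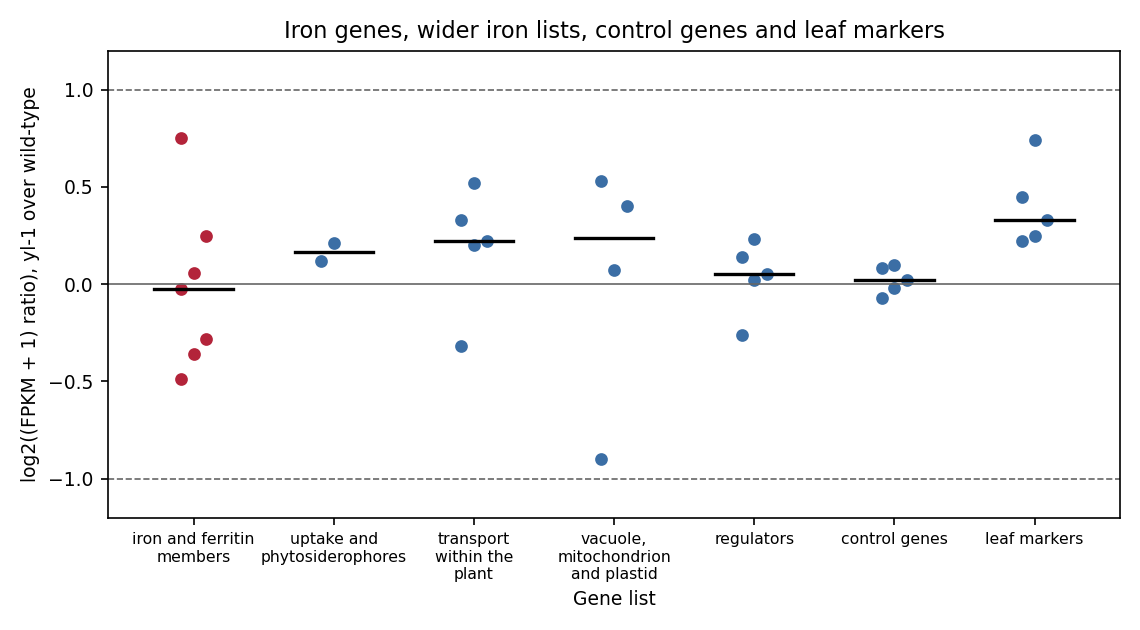
Log2((FPKM + 1) ratio) of the *yl-1*-labelled library over the wild-type-labelled library (vertical axis) for each compared gene of the iron set (red) and of the wider iron lists, control genes and leaf markers (blue), with black bars at the list medians and dashed lines at 2-fold. The medians are -0.027 for the iron set, 0.17, 0.22, 0.23 and 0.051 for the wider lists, 0.020 for control genes and 0.33 for leaf markers, with the regulators at -0.10 and the control genes at -0.13 after rescaling to the same sum.

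Among the iron genes above 0, the directions given for *IRO2*, *IRO3*, *Fer1*, *Fer2*, *HRZ2* and *NAS3* held under the 3 rescalings. The rescalings multiplied the *yl-1*-labelled library by 0.897, 0.989 and 1.01, and the last 2 factors can turn only differences near 0. A change of pseudocount cannot turn a sign, so it is no check of direction. The sum of the ferritin genes had a log2 ratio of -0.50 after rescaling to the same sum, with *Fer2* at -0.51 and *Fer1* at -0.42. *NAS3* moved most with the pseudocount, to 1.22 at 0.1 and 1.30 at 0.01, and was at 0.64 under rescaling to the same sum.

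**Figure D4:**
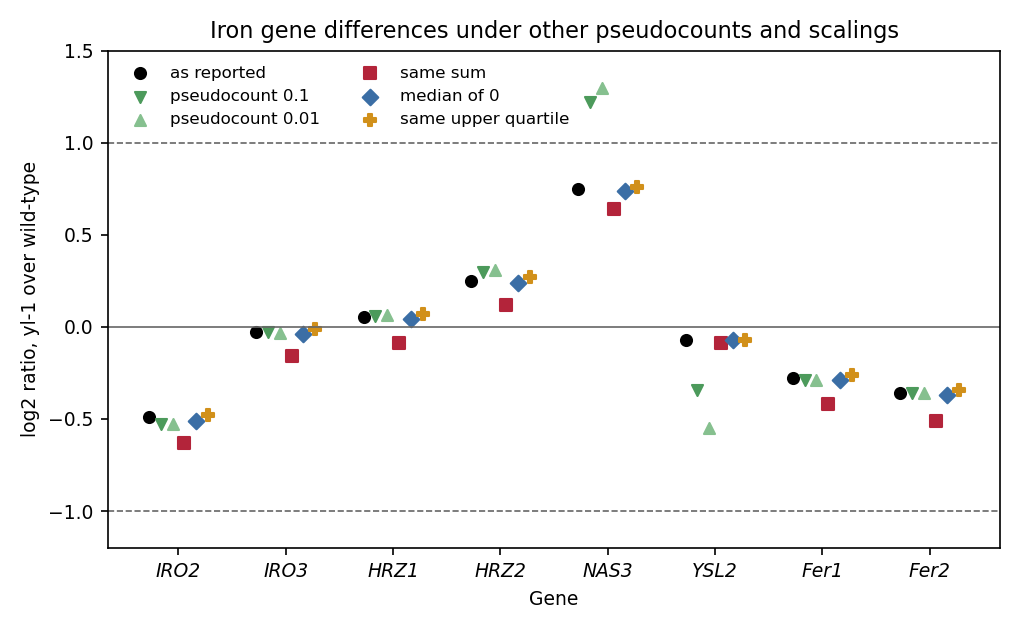
Log2 ratio of the *yl-1*-labelled library over the wild-type-labelled library (vertical axis) for the 8 iron genes above 0, as reported and under other pseudocounts and scalings (symbols), with dashed lines at 2-fold. *HRZ1* is the gene whose sign changes, to -0.086 with the same sum, and *NAS3* the gene that passes 2-fold, with a pseudocount of 0.1 or 0.01.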

How the data were processed

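Leaf RNA was sequenced from 1 wild-type and 1 *yl-1* library. The authors deposited FPKM values, and the submitters' processing notes name TopHat, Cufflinks and Cuffdiff. Tool versions, build, annotation and any filter were not given in the sources used here. Columns were assigned to genotypes by name, and 0 columns of values were left unused. Entries averaging at least 1 FPKM over both libraries were compared by log2((FPKM + 1) ratio), and those past 2-fold gave the background. An exact 0 was given as listed at 0, with no fold. With 1 library per genotype no test was possible. All 10 iron genes were named, and genes of the wider lists were counted per list, with 2 unnamed IDs printed after their values were seen. The genes and lists were chosen with earlier results of these data known. Of 41981 locus IDs, 0 matched the RefSeq table of assembly ASM3414082v1, so no sequence or coordinate is given. The code for counts and scalings was run on values of the wild-type-labelled library multiplied by set factors without noise, which checks its arithmetic only. Alternatives were other pseudocounts (0.1, 0.01), filters (none, mean of at least 5), a 1.5-fold threshold and 3 rescalings. Python 3.11.15, numpy 2.4.6, pandas 2.3.3 and matplotlib 3.10.9 were used.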

Additional observations from a re-analysis of the deposited data

How the results depend on the processing

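No paired analysis was possible because each genotype has 1 library. The absence of replicates and the unknown fragment numbers limit every value here, most of all those under 1 FPKM. The cause of the changes below was not tested, apart from filters, which change the genes counted. For the 7 iron genes (3 higher, 4 lower, 0 past 2-fold), a mean FPKM of at least 5 left 1 higher and a median of -0.28. *NAS3* was past the threshold with a pseudocount of 0.1 (1 gene higher), 0.01 (1) or a 1.5-fold threshold (1). Rescaling to the same sum gave the iron genes a median of -0.16 and *HRZ1* -0.086. It gave the wider iron lists 8 higher, 8 lower, 1 past 2-fold lower and a median of 0.017, their regulators -0.10, the control genes -0.13 and all genes -0.12. With no filter, 7 genes of the wider lists were lower, the uptake list had a median of -0.063 and all genes -0.0033. A mean of at least 5 gave the control genes -4.6e-05. In the wider lists 1 gene was past the threshold and lower with a pseudocount of 0.1 (1), 0.01 (1) and at 1.5-fold (1). At 1.5-fold 1393 of the 14559 genes compared were also that much lower, so 1 of 16 does not set these lists apart. Over all genes, against 364 higher and 531 lower past 2-fold, there were 586 and 782 at a pseudocount of 0.1, 611 and 818 at 0.01, 154 and 268 at a mean of at least 5, and 1122 and 1393 at 1.5-fold.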
